A study of Mus musculus with 27 samples.

Results

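The 42 genes described here are cell cycle genes whose products copy DNA and carry the cell through mitosis. They were taken as the rows of the count table whose Ensembl identifier maps in GENCODE M21 to 1 of 42 listed mouse symbols. The rule itself reads no expression value, but the list was drawn up with earlier results of these data known. Each symbol matched 1 of the 51789 gene IDs of the table. By role they fall into 8 genes of the cyclin and kinase engine of mitosis, 4 of the spindle checkpoint and anaphase-promoting complex, 7 of kinetochores and motor proteins, 6 of the spindle and cytokinesis, 6 of chromosome structure, 8 of the replication helicase and its clamp, and 3 of nucleotide supply.

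RNA of mouse ovary was profiled in 27 libraries of 3′ tags, in which each polyA transcript is counted near its end. Experiment 1 had 4 aged mice given TRi-1, 4 untreated aged mice and 5 untreated young mice, and experiment 2 had 4 aged mice given auranofin, 5 untreated aged mice and 5 untreated young mice. Both compounds are inhibitors of thioredoxin reductase, auranofin being a gold compound, and the study's title names the thioredoxin reductase gene TXNRD1 in age-associated inflammation. Strain, genotype, age, dose, route and time of treatment are not given in the sources used here, and the untreated mice are labelled as controls without a named vehicle. Libraries held 6460903 to 14814381 counts, and all 42 genes passed the filter on low counts in each fit. In experiment 1, Bub1, Kif20a and Mcm10 could not have passed it without the young libraries.

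Genes of DNA replication are switched on as a cell leaves G1, largely through E2F transcription factors, while genes of mitosis peak later, under the MuvB complex with B-MYB and FOXM1. In the ovary the granulosa cells of growing follicles divide most, and the oocyte, although arrested in meiosis, stores transcripts of many of the same genes. In whole tissue, fewer cells of a type and less RNA per cell cannot be told apart.

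Motifs known from such promoters were searched for on both strands. The CHR element, to which MuvB binds, was read as TTTGAA, with TTCGAA allowed as its variant. The CCAAT box is bound by NF-Y. An E2F core was read as TTCCCGC, with TTGGCGC allowed as well and TTCGCGC as a further form. RefSeq gave promoter windows of 300 bases, with 250 before and 50 after the start of transcription, for 36 of the 42 genes (GRCm38.p6). No window was matched for Smc4, Aurkb, Kif20a, Ccna2, Mcm4 and Tpx2. The sequences below cover 180 bases before the start for 4 mitotic genes (Cdk1, Top2a, Ncapg, Prc1) and 3 genes of DNA copying and nucleotide supply (Mcm5, Mcm6, Rrm1), shown because CHR matches, and calls with age, were more frequent among mitotic and chromosome genes than among the others. Capitals mark every match of the 3 motifs, and runs of capitals longer than 1 motif are matches that overlap on opposite strands.
Cdk1, chr10:69352913-69353092 (- strand): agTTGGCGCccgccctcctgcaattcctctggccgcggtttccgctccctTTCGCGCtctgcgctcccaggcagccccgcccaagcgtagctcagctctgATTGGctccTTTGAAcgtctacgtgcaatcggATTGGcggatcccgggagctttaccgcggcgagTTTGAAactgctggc
Top2a, chr11:99024190-99024369 (- strand): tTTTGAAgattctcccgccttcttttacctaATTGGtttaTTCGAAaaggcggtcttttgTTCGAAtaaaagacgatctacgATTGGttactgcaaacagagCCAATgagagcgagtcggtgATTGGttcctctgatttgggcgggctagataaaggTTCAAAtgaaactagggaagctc
Ncapg, chr5:45669745-45669924 (+ strand): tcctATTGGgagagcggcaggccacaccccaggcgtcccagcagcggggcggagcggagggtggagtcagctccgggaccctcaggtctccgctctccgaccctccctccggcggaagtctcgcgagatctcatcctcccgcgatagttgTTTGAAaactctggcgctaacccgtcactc
Prc1, chr7:80294296-80294475 (+ strand): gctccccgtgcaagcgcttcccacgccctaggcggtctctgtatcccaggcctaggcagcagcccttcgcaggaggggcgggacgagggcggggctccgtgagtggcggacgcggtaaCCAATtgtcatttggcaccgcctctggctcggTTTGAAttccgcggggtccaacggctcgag
Mcm5, chr8:75109329-75109508 (+ strand): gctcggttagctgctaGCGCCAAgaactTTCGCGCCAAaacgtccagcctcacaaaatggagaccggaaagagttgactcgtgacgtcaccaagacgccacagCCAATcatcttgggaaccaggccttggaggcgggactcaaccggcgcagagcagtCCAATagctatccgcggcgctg
Mcm6, chr1:128359706-128359885 (- strand): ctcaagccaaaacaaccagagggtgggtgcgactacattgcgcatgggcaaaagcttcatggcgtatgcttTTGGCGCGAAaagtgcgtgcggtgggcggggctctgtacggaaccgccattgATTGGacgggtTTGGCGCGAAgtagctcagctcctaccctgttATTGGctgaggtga
Rrm1, chr7:102441515-102441694 (+ strand): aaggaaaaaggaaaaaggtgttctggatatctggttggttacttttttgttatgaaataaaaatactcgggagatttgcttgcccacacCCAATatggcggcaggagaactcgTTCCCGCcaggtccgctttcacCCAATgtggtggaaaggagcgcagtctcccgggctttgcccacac

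A CHR element was matched in 21 of the 26 mitotic and chromosome genes with a window (80.8%), in 2 of the 10 genes of replication and nucleotide supply (20.0%) and in 21.7% of all 27025 genes with a RefSeq window. The CCAAT box was common in both sets, at 20 of 26 (76.9%) and 9 of 10 genes (90.0%), against 41.1% of all genes. An E2F core was matched in 7 of the 26 (26.9%) and 5 of the 10 (50%), against 9.20% of all genes. CHR and CCAAT occurred together in 18 of the 26 (69.2%), 2 of the 10 (20.0%) and 9.65% of all genes. Among the printed sequences, Cdk1 carries all 3 motifs and Top2a, Ncapg and Prc1 carry CHR and CCAAT. The printed Mcm5, Mcm6 and Rrm1 sequences carry E2F and CCAAT matches and no CHR. Not all genes of replication and nucleotide supply were like them. CHR was matched in a window of Mcm2 and of Mcm7, and no E2F core in Mcm2, Mcm10, Pcna, Rrm2 and Tyms. The mitotic and chromosome genes whose windows lacked CHR were Birc5, Ccnb1, Cenpe, Hells and Nusap1. All were called lower with age in experiment 1, and all but Birc5 in experiment 2. Anln, Cdc20, Plk1 and Ube2c had a match and were called in neither experiment. Aspm, Cenpf, Kif11, Kif15, Kif20b, Ncapg, Smc2 and Top2a had a match and were called in both. A link between matches and calls was not tested. A match describes the letters of a window and was not tested as a binding site.

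Before the results, 4 libraries stood apart by cell type markers. The young library 3 of experiment 2 summed to 4.10 CPM, that is counts scaled to a common library size, over 12 oocyte markers, with 9 of them at 0 (H1foo, Zp2, Zp3, Bmp15, Nlrp5, Oosp1, Dppa3, Zar1, Padi6), and to 33.6 CPM over 6 luteal and steroid markers, against 1509 to 3949 CPM in the other young libraries of that experiment. Auranofin library 4 had 22386 CPM over 7 markers of B and plasma cells and 4969 CPM over 5 macrophage markers, against 386 to 3189 CPM and 531 to 1965 CPM in the other auranofin libraries. TRi-1 library 4 of experiment 1 had 1886 CPM over 12 granulosa and cumulus markers, against 371 to 446 CPM in the other TRi-1 libraries, and untreated aged library 3 of experiment 1 had 2574 CPM over 6 hepatocyte markers. Stromal and theca markers, 7 in all, summed to 3737 to 7754 CPM over all libraries. Of these, Cyp17a1 stood at 0 in young library 3 of experiment 2 and in auranofin library 3. Such a sum does not by itself show the tissue to be ovary, which was taken from the labels.

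Many genes of mitosis and chromosome structure were lower in aged than in young ovaries of both experiments, with kinetochore, motor and condensin genes among them. Experiment 1 had 30 of the 42 called lower and none called higher (edgeR quasi-likelihood test, Benjamini-Hochberg adjusted p under 0.05 over all genes), in a comparison where 34.9% of all genes were called, 18.5% higher and 16.4% lower. Bub1, Kif20a and Mcm10, among these 30, passed the filter on low counts only with the young libraries, so they could only be called lower. Experiment 2 had 13 called lower and none higher, where 10.5% of all genes were called, 5.86% higher and 4.59% lower. Their median log2 fold change was -2.06 in experiment 1 and -0.90 in experiment 2, beside 0.02 and -0.03 for all genes tested. The 13 genes called in experiment 2 were all among the 30 of experiment 1 (100% and 43.3% of each list): Aspm, Ccnb1, Cenpe, Cenpf, Hells, Kif11, Kif15, Kif20b, Ncapg, Nusap1, Smc2, Smc4 and Top2a. Without the 4 libraries that stood apart, 28 and 16 genes were called lower. For experiment 2 limma-voom called 21 of the 42 lower, but it also called more over all genes, 2642 against 1705 in edgeR.

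Summed over the 42 genes, aged ovaries of experiment 1 held 515 ± 17.6 CPM and young ovaries 1710.2 ± 233 CPM (SD, n = 4 and 5). In experiment 2 the sums were 565 ± 123 CPM in aged and 1121 ± 93.6 CPM in young ovaries (SD, n = 5 each). In neither experiment did the sums of the groups overlap. The share of all genes without overlap between ages is not given here. Lack of overlap, in these sums and in single genes below, therefore does not set them apart from other genes. By role, 25 of the 31 mitotic and chromosome genes were called lower in experiment 1 and 13 in experiment 2, with medians of -2.17 and -1.14. Of all genes, 16.4% were called lower in experiment 1 and 4.59% in experiment 2. These shares also stand beside the counts by role below. Of the 11 genes of replication and nucleotide supply, 5 were called lower in experiment 1 and none in experiment 2, with medians of -0.57 and -0.19. For these 11 genes in experiment 2, edgeR, DESeq2 and limma-voom each made 0 calls and gave 1 unadjusted p under 0.05, that of Tyms in edgeR.

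**Figure D1:**
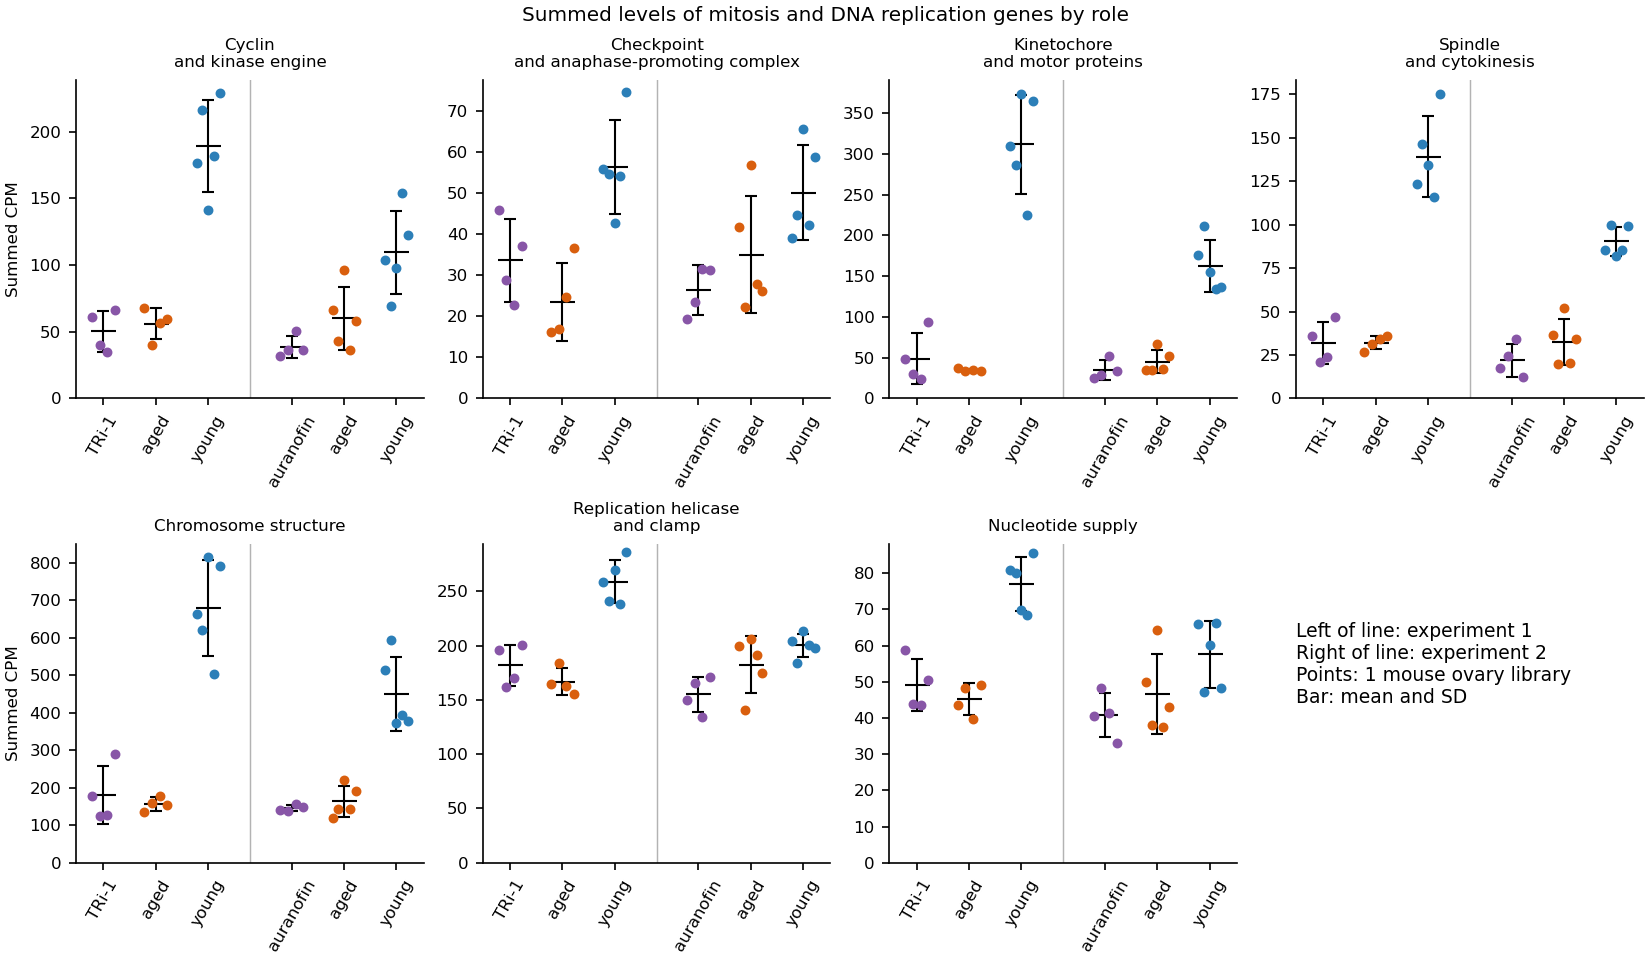
Summed CPM of the genes of each role (vertical axes) in every library, by group (horizontal axes; experiment 1 left of the grey line, experiment 2 right of it), with the mean and SD as bars. Kinetochore and motor genes sum to 33.4 to 36.9 CPM in aged and 225 to 373 CPM in young ovaries of experiment 1, while helicase and clamp genes lie between 134.5 and 286 CPM in all libraries.

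The cyclin and kinase engine holds Cdk1, the kinase that drives entry into mitosis, its cyclins Ccna2, Ccnb1 and Ccnb2, the kinases Aurka, Aurkb and Plk1, and Birc5 (survivin), which with Aurkb forms part of the chromosomal passenger complex. Aged ovaries of experiment 1 had 5 of the 8 called lower (Cdk1, Ccnb1, Ccnb2, Aurka, Birc5), and aged ovaries of experiment 2 had 1, Ccnb1. Of all genes, 16.4% and 4.59% were called lower, and 1 call among 8 genes is not read as a result about the engine. Ccnb1 had 12.9, 3.67, 8.69 and 17.2 CPM in aged and 41, 61, 60.7, 58.6 and 59.3 CPM in young ovaries of experiment 1. Its values in experiment 2 were 5.82, 10.1, 15.4, 6.04 and 10.7 CPM in aged and 25.1, 15.2, 20.4, 26.1 and 28.1 CPM in young ovaries. The groups did not overlap in experiment 1, and in experiment 2 only the highest aged library, at 15.4 CPM, passed the lowest young one, at 15.2 CPM. Its log2 fold changes were -2.38 ± 0.37 (SE, edgeR adjusted p 0.00017) and -1.26 ± 0.33 (adjusted p 0.022).

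Cdk1 was uneven among young ovaries. It had 1.60, 10.5, 6.82 and 7.38 CPM in aged and 58.6, 58.4, 15.4, 60.5 and 67.6 CPM in young ovaries of experiment 1, where young library 3 was far below the other young ones and still above every aged one. In experiment 2 it had 12.1, 5.66, 13.2, 2.53 and 6.48 CPM in aged and 40.1, 6.65, 5.36, 74.4 and 32.2 CPM in young ovaries, and young libraries 2 and 3 lay within the aged range. The log2 fold change was -2.95 ± 0.45 in experiment 1 (adjusted p 0.00013) and -1.97 ± 0.69 in experiment 2, which missed the threshold (adjusted p 0.089).

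Birc5 had 26.7, 12.6, 18.8 and 12.6 CPM in aged and 38.3, 46.8, 37.8, 31.4 and 46.9 CPM in young ovaries of experiment 1, without overlap, and a log2 fold change of -1.18 ± 0.30 (adjusted p 0.0064). In experiment 2 it had 22.5, 10.8, 22.6, 11.4 and 18.5 CPM in aged and 17.6, 21.5, 24.2, 18.4 and 26.8 CPM in young ovaries, the groups overlapped, and the log2 fold change was -0.33 ± 0.28 (adjusted p 0.54). Ccnb2 and Aurka had log2 fold changes of -2.06 ± 0.45 and -2.85 ± 0.62 in experiment 1 (adjusted p 0.0023 and 0.0022). In experiment 2 the same genes had 0.00 ± 0.44 and -0.21 ± 0.50, with adjusted p of 1 and 0.86. Plk1, which acts at centrosomes, kinetochores and the midzone, averaged 11.5 ± 3.01 CPM in aged and 11.6 ± 3.62 CPM in young ovaries of experiment 1 (SD), a log2 fold change of 0.00 ± 0.32. Ccna2 missed the threshold in both experiments (-0.78 ± 0.43 and -1.14 ± 0.52), and Aurkb stood near 1 CPM in both ages, with -0.11 ± 0.86 and 0.59 ± 0.86.

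Of the checkpoint genes, Bub1 and Bub1b, kinases that hold back anaphase until chromosomes are attached, were called lower in experiment 1. Bub1 had 6 counts in all over the 4 aged libraries of experiment 1, with 2 libraries at 0, and 175 counts over the 5 young ones, where it averaged 4.87 ± 1.28 CPM. Its fitted log2 fold change of -4.89 ± 0.85 was the lowest of the 42 genes and rests on those few counts (adjusted p 0.00038). Bub1b had a log2 fold change of -2.05 ± 0.29 in experiment 1 (adjusted p 6.8e-05). In experiment 2 Bub1 had -2.61 ± 0.94 and Bub1b -0.67 ± 0.36, with adjusted p of 0.095 and 0.28.

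Cdc20 and Ube2c, the activator and the ubiquitin-conjugating enzyme of the anaphase-promoting complex, passed in neither experiment. Cdc20 had 7.39, 1.43, 6.26 and 17.8 CPM in aged and 13.1, 22.4, 19.1, 15.3 and 26.1 CPM in young ovaries of experiment 1, and 17.1, 13.7, 23.7, 17.8 and 8.69 CPM in aged and 13.9, 29.1, 37.4, 16.3 and 31.7 CPM in young ovaries of experiment 2. The groups overlapped in both, with log2 fold changes of -1.20 ± 0.53 and -0.67 ± 0.43 (adjusted p 0.094 and 0.39). Ube2c had -0.43 ± 0.43 and 0.03 ± 0.42.

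The 7 genes of kinetochores and motors were all called lower in experiment 1, and 5 of them were called lower in experiment 2 (Cenpe, Cenpf, Kif11, Kif15, Kif20b). Cenpe, a kinesin that moves chromosomes to the spindle equator (ENSMUSG00000045328, chr3:135212537-135273611, + strand), had 11.8, 5.30, 7.29 and 8.47 CPM in aged and 109.9, 108, 137, 58.1 and 124 CPM in young ovaries of experiment 1. In experiment 2 it had 6.33, 10.7, 19.3, 10.9 and 12 CPM in aged and 47.2, 60.9, 54.5, 33 and 34.7 CPM in young ovaries. Every young library was above every aged one in both experiments, with log2 fold changes of -3.70 ± 0.43 (adjusted p 1.5e-05) and -1.97 ± 0.36 (adjusted p 0.0027).

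Kif20b, a kinesin of cytokinesis (ENSMUSG00000024795, chr19:34922361-34975745, + strand), had 3.08, 2.55, 0.841 and 2.35 CPM in aged and 44.4, 38.2, 74.6, 31.4 and 47.5 CPM in young ovaries of experiment 1. In experiment 2 the values were 2.07, 2.11, 4.33, 4.33 and 2.05 CPM in aged and 33.7, 60.1, 26.9, 19.7 and 22.8 CPM in young ovaries. The groups were wide apart in both, and the log2 fold changes were -4.42 ± 0.55 (adjusted p 2.3e-05) and -3.47 ± 0.44 (adjusted p 0.00024), of which the experiment 2 value was the lowest of the 42 there.

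Cenpf, a large protein of the outer kinetochore (ENSMUSG00000026605, chr1:189640606-189688086, - strand), had 9.11, 16.8, 15.9 and 8.30 CPM in aged and 87, 82.4, 107, 72.9 and 113 CPM in young ovaries of experiment 1, against 11.6, 8.71, 17.3, 6.86 and 20.6 CPM in aged and 45.9, 48.3, 33.3, 41.6 and 35 CPM in young ovaries of experiment 2. No aged library reached a young one, and the log2 fold changes were -2.87 ± 0.41 and -1.65 ± 0.28 (adjusted p 7.8e-05 and 0.0018). Kif15 and Kif11, motors that push the spindle poles apart, had -2.53 ± 0.35 and -2.12 ± 0.69 in experiment 1 (adjusted p 6.8e-05 and 0.026). In experiment 2 they had -1.84 ± 0.39 and -1.85 ± 0.42 (adjusted p 0.0073 and 0.011). Kif20a and Kif23, motors of the central spindle, fell in experiment 1 (-3.19 ± 0.62 and -2.31 ± 0.34, adjusted p 0.00095 and 1e-04) and missed the threshold in experiment 2 (-0.53 ± 0.76 and -1.03 ± 0.33, adjusted p 0.75 and 0.056).

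**Figure D2:**
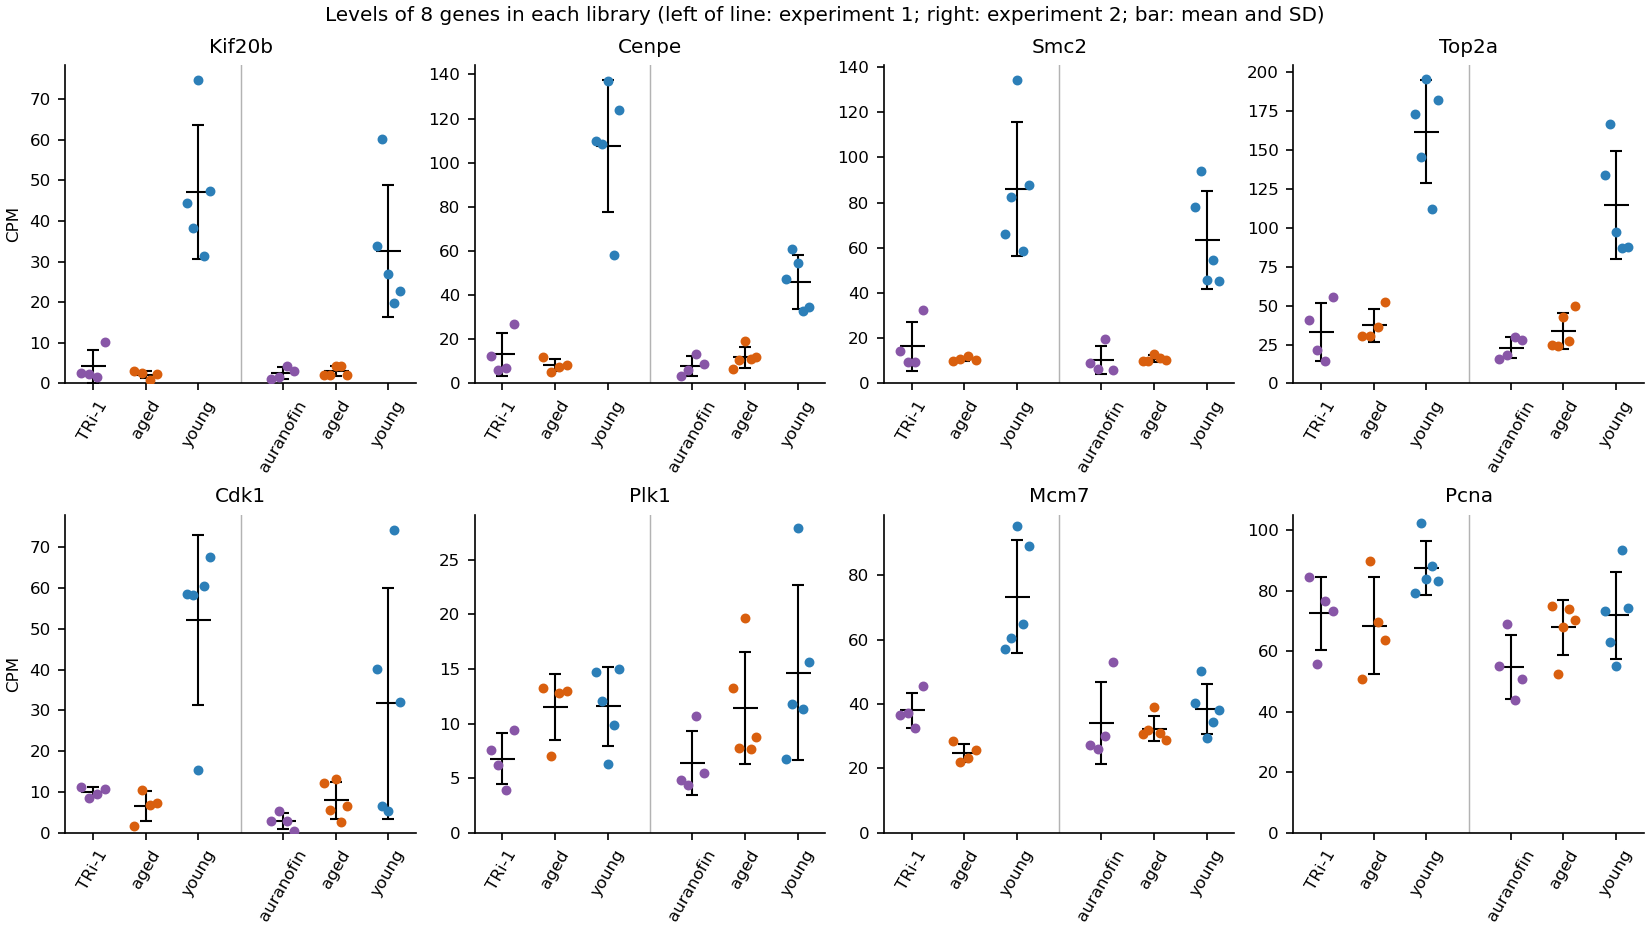
CPM of 8 genes (vertical axes) in every library, by group (horizontal axes; experiment 1 left of the grey line, experiment 2 right of it), with the mean and SD as bars. Kif20b, Cenpe, Smc2 and Top2a are lower in every untreated aged library than in any young library of the same experiment, whereas Plk1 and Pcna overlap between ages. The share of all genes separate in this way is not given.

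Among spindle and cytokinesis genes, 5 of 6 were called lower in experiment 1 (Aspm, Ect2, Nusap1, Prc1, Tpx2) and 2 in experiment 2 (Aspm, Nusap1). Aspm, a protein of spindle poles (ENSMUSG00000033952, chr1:139454772-139494091, + strand), had 3.94, 2.24, 3.93 and 3.77 CPM in aged and 33.9, 38.1, 32, 30.9 and 47.3 CPM in young ovaries of experiment 1, and 2.46, 3.21, 7.38, 1.62 and 5.16 CPM in aged and 23.9, 30.9, 12.9, 25.6 and 30.1 CPM in young ovaries of experiment 2. The groups did not overlap, and the log2 fold changes were -3.38 ± 0.41 and -2.63 ± 0.48 (adjusted p 2.2e-05 and 0.0027). Nusap1, which bundles spindle microtubules, had 3.69, 10.2, 9.35 and 8.47 CPM in aged and 23.5, 37.2, 23.3, 24.6 and 36.3 CPM in young ovaries of experiment 1, with a log2 fold change of -1.85 ± 0.32. In experiment 2 its log2 fold change was -1.64 ± 0.39, with adjusted p of 0.00037 and 0.012 in the 2 experiments.

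Prc1, which cross-links the antiparallel microtubules of the midzone, had 8.49, 7.54, 8.79 and 8.47 CPM in aged and 31.7, 37.9, 44.2, 32 and 43.6 CPM in young ovaries of experiment 1. In experiment 2 it had 14.5, 7.02, 16.2, 8.39 and 12.1 CPM in aged and 18.5, 21.7, 24.3, 20.8 and 25.6 CPM in young ovaries. Neither experiment showed overlap, and Prc1 had -2.17 ± 0.28 (adjusted p 3.1e-05) in experiment 1 and -0.92 ± 0.36 (adjusted p 0.13) in experiment 2. The difference of these effects was 1.26 ± 0.46 (adjusted p 0.26). Tpx2, which activates Aurka, and Ect2, the exchange factor that switches on RhoA for furrowing, had -1.44 ± 0.35 and -2.49 ± 0.47 in experiment 1 and -1.08 ± 0.36 and -1.20 ± 0.53 in experiment 2, where neither passed. Anln, the contractile ring protein anillin, passed in neither (-0.92 ± 0.43 and -0.88 ± 0.53).

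The genes of chromosome structure were all called lower in experiment 1, and all but Mki67 were called lower in experiment 2. Smc2, a core ATPase of condensin (ENSMUSG00000028312, chr4:52439243-52488260, + strand), had 9.72, 11, 12 and 10.2 CPM in aged and 66.1, 82.5, 134, 58.5 and 88 CPM in young ovaries of experiment 1, and 9.89, 9.89, 13.2, 11.4 and 10.4 CPM in aged and 78.2, 94.1, 45.6, 54.8 and 45.3 CPM in young ovaries of experiment 2. Aged libraries spanned a narrow range that no young library entered, with log2 fold changes of -2.99 ± 0.37 (adjusted p 2.2e-05) and -2.54 ± 0.33 (adjusted p 3e-04). Smc4, its partner in condensin (ENSMUSG00000034349, chr3:69004738-69034623, + strand), had 52.9, 88.2, 96.4 and 55.7 CPM in aged and 307, 281, 337, 236 and 395 CPM in young ovaries of experiment 1, against 55.7, 75.7, 112, 70.5 and 86.6 CPM in aged and 206, 192, 142, 184 and 161 CPM in young ovaries of experiment 2. Its log2 fold changes were -2.07 ± 0.27 and -1.14 ± 0.21 (adjusted p 3.9e-05 and 0.0023), and no libraries overlapped.

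Ncapg, a further condensin subunit, had 5.54, 2.24, 2.06 and 2.94 CPM in aged and 27.4, 26.8, 32.2, 31.4 and 33.8 CPM in young ovaries of experiment 1, and 2.33, 3.30, 8.49, 4.33 and 2.54 CPM in aged and 22.9, 22.4, 14.7, 18.2 and 15.2 CPM in young ovaries of experiment 2. Top2a, the topoisomerase that untangles sister chromatids, had 30.2, 30.3, 36.5 and 52.6 CPM in aged and 173, 145, 195, 112 and 182 CPM in young ovaries of experiment 1, and 24.8, 24, 42.7, 27.2 and 49.5 CPM in aged and 134, 166, 97.5, 87 and 87.7 CPM in young ovaries of experiment 2. Both genes were separate between ages in each experiment: Ncapg had -3.25 ± 0.39 and -2.16 ± 0.40 (adjusted p 1.9e-05 and 0.0027), and Top2a -2.10 ± 0.34 and -1.77 ± 0.29 (adjusted p 0.00021 and 0.0012). Hells, a chromatin remodeller, had -2.54 ± 0.39 and -1.53 ± 0.31 (adjusted p 0.00015 and 0.0051). Mki67, the gene of the Ki-67 proliferation antigen, averaged 27.8 ± 5.69 CPM in aged and 65.5 ± 20.4 CPM in young ovaries of experiment 1 and 27.7 ± 5.73 CPM in aged and 57.1 ± 26.5 CPM in young ovaries of experiment 2 (SD). Its log2 fold changes were -1.23 ± 0.27 and -1.05 ± 0.34 (adjusted p 0.0022 and 0.066).

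**Figure D3:**
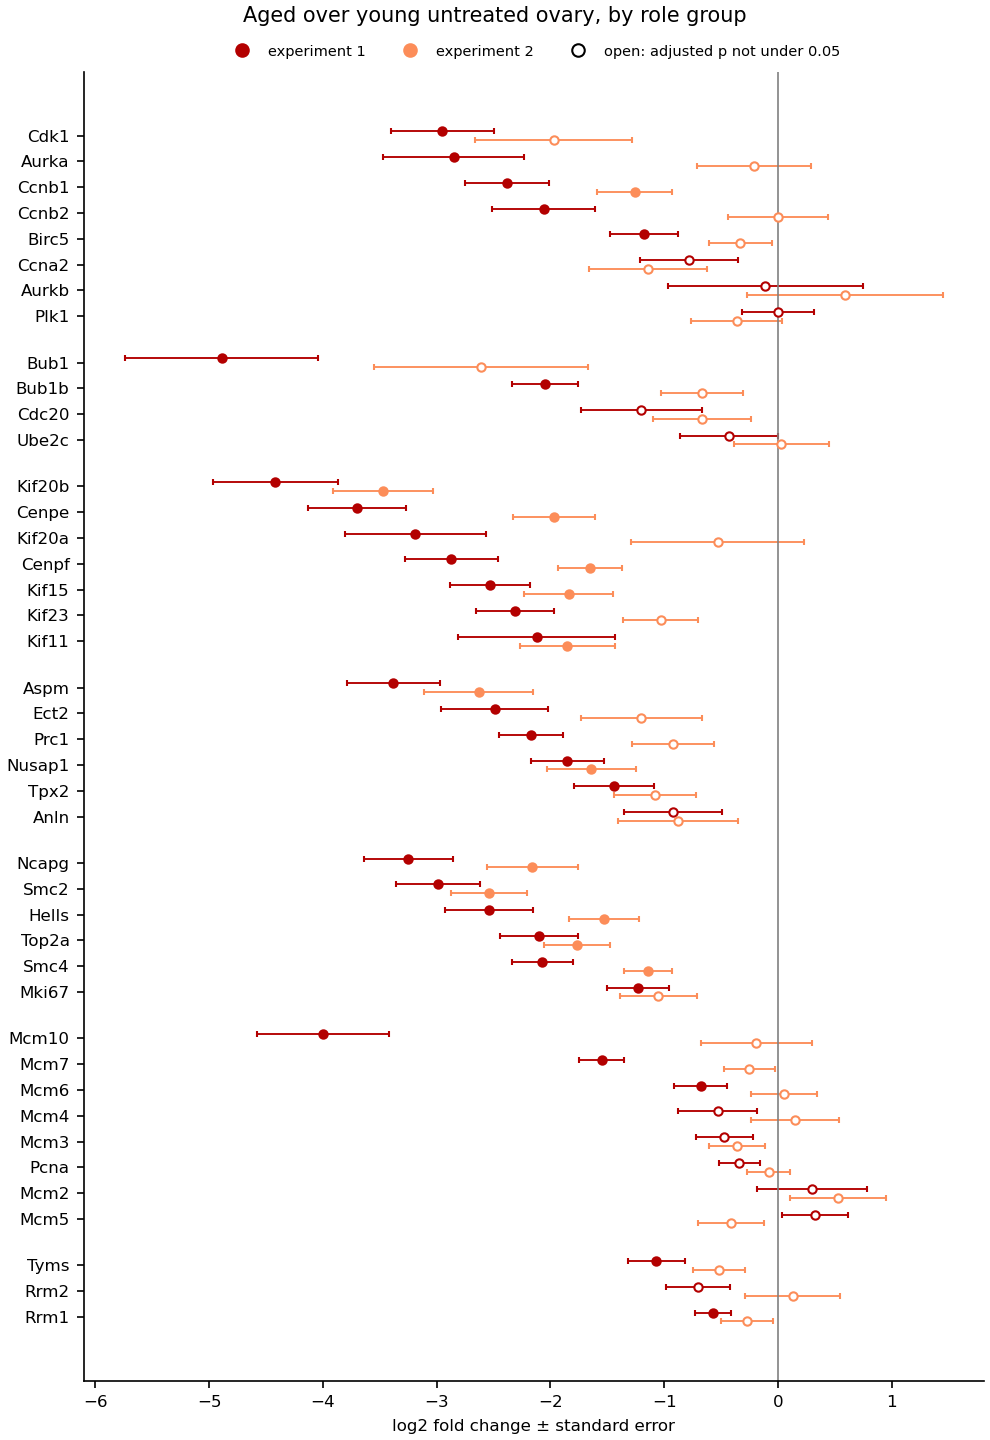
Log2 fold change of aged over young untreated ovary with its standard error (horizontal axis) for each of the 42 genes, grouped by role (vertical axis), in experiment 1 (dark) and experiment 2 (light); filled points have an edgeR adjusted p under 0.05. Filled points lie left of 0 in both experiments, 30 in experiment 1 and 13 in experiment 2, and none of experiment 2 are helicase, clamp or nucleotide genes.

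The replication helicase is built from Mcm2, Mcm3, Mcm4, Mcm5, Mcm6 and Mcm7, Mcm10 helps to start it, and Pcna is the sliding clamp of the polymerases. Mcm6, Mcm7 and Mcm10 were called lower in experiment 1, and none of the 8 was called in experiment 2, where edgeR, DESeq2 and limma-voom gave 0 of them an unadjusted p under 0.05. Mcm10 had 1.11, 0.408, 0.654 and 0.335 CPM in aged and 13.8, 6.66, 9.44, 7.40 and 13 CPM in young ovaries of experiment 1, and 2.20, 2.11, 2.21, 2.07 and 3.20 CPM in aged and 1.90, 2.35, 2.96, 2.52 and 3.74 CPM in young ovaries of experiment 2. Young ovaries of experiment 1 stood above all other libraries, and the ages overlapped in experiment 2, with log2 fold changes of -4.00 ± 0.58 (adjusted p 8.9e-05) and -0.19 ± 0.49 (adjusted p 0.87).

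Mcm7 had 28.4, 21.9, 23.1 and 25.7 CPM in aged and 57, 60.4, 95.1, 64.7 and 89 CPM in young ovaries of experiment 1, without overlap, and 30.7, 32, 38.9, 31.1 and 28.7 CPM in aged and 40.1, 50.1, 29.5, 34.3 and 38.1 CPM in young ovaries of experiment 2, with overlap. The log2 fold changes were -1.55 ± 0.20 (adjusted p 3.4e-05) and -0.25 ± 0.22 (adjusted p 0.55). Mcm6 had -0.68 ± 0.23 and 0.05 ± 0.29 (adjusted p 0.029 and 0.95). Pcna had 50.8, 89.7, 69.6 and 63.9 CPM in aged and 79.4, 102, 83.9, 88.3 and 83.2 CPM in young ovaries of experiment 1, and 75.1, 52.6, 67.9, 74 and 70.4 CPM in aged and 73.3, 63, 55.2, 93.6 and 74.4 CPM in young ovaries of experiment 2. The ages overlapped in both, with -0.34 ± 0.18 and -0.08 ± 0.19 (adjusted p 0.17 and 0.87). Mcm2, Mcm3, Mcm4 and Mcm5 passed in neither experiment, with log2 fold changes from -0.53 (Mcm4) to 0.33 (Mcm5) in experiment 1 and from -0.41 (Mcm5) to 0.53 (Mcm2) in experiment 2.

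Of the nucleotide genes, Rrm1, the large subunit of ribonucleotide reductase, and Tyms, which makes thymidylate, were called lower in experiment 1. Rrm1 had 27.4, 28, 26.5 and 25.9 CPM in aged and 43, 39.6, 40.2, 33.8 and 45.2 CPM in young ovaries of experiment 1, without overlap, and 26.6, 20.3, 29.4, 17.5 and 21.7 CPM in aged and 33.9, 22, 28.6, 30.2 and 24.5 CPM in young ovaries of experiment 2, with overlap. Its log2 fold changes were -0.57 ± 0.16 (adjusted p 0.0099) and -0.27 ± 0.23 (adjusted p 0.55), a smaller change in experiment 1 than that of any called mitotic gene. Tyms had -1.07 ± 0.25 and -0.52 ± 0.23 (adjusted p 0.0039 and 0.18). Rrm2, the small subunit, had -0.70 ± 0.28 and 0.13 ± 0.42, neither past the threshold.

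In 1 fit of all 27 libraries, the age effect averaged over both experiments called 32 of the 42 genes lower and none higher, where 35.3% of all genes were called, 17.5% higher and 17.8% lower. Smc2 (-2.77 ± 0.26, adjusted p 9.2e-09), Kif20b (-3.94 ± 0.37, adjusted p 1e-08), Cenpe (-2.84 ± 0.29, adjusted p 4.2e-08) and Smc4 (-1.61 ± 0.17, adjusted p 5.3e-08) had the smallest p. The set was 28 of the 31 mitotic and chromosome genes and 4 of the 11 genes of replication and nucleotide supply (Mcm7, Mcm10, Rrm1, Tyms). The mitotic genes that did not pass were Aurkb, Plk1 and Ube2c.

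The difference between the age effects, experiment 2 minus experiment 1, had a median of 0.75 over the 42 genes and -0.02 over all genes. No gene of the 42 was called in edgeR, and 13 had an unadjusted p under 0.05, in a test that called 0% of all genes. The lowest adjusted p were those of Mcm10 (3.81 ± 0.73, adjusted p 0.076) and Mcm7 (1.31 ± 0.29, adjusted p 0.086). DESeq2 called 3 of the 42 here (Mcm10, Aurka and Mcm7), among 172 calls over all genes, and limma-voom 2 (Mcm10 and Mcm7), among 33. Leaving out young library 4 of experiment 1, or young library 4 of experiment 2, brought Mcm10 past the threshold in edgeR (3.94, adjusted p 0.046, and 3.79, adjusted p 0.044), as did leaving out the 4 libraries that stood apart (3.90, adjusted p 0.032).

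Markers of follicle cells moved with age alongside these genes, in comparisons where 16.4% of all genes were called lower in experiment 1 and 4.59% in experiment 2. All 12 oocyte markers were called lower in experiment 1, where their sum ran over 7.21 to 12.2 CPM in aged and 229.5 to 412 CPM in young ovaries, and 8 of 11 tested were called lower in experiment 2 (4.14 to 12 CPM in aged and 4.10 to 169 CPM in young ovaries). Between 4 and 7 of the 12 stood at 0 in each untreated aged library, Zp2 among them in every one. In experiment 1, Zar1 also stood at 0 in each of them. Markers such as Zp2 and Zar1 could not have passed the filter on low counts there without the young libraries. They could therefore only be called lower, and the count of 12 is partly fixed by the filter. Granulosa and cumulus markers were called lower in 8 of 10 tested in experiment 1 and in 3 of 10 in experiment 2, with sums of 182 to 347 CPM in aged and 948 to 1896 CPM in young ovaries of experiment 1, and 162 to 741 CPM in aged and 284 to 1422 CPM in young ovaries of experiment 2. Their part in the result was not tested.

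Luteal and steroid markers had 1 of 6 called lower in each experiment, Hsd3b1 in experiment 1 and Akr1c18 in experiment 2. Over all genes, 16.4% and 4.59% were called lower, and 1 call in so short a list is not read as a result about luteal cells. Their sums were 298 to 1728 CPM in aged and 1182 to 3222 CPM in young ovaries of experiment 1 and 166 to 1489 CPM in aged and 33.6 to 3949 CPM in young ovaries of experiment 2.

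Most or all markers of B and plasma cells, macrophages and T cells were called higher with age in both experiments, and markers of red cells mainly in experiment 1. Over all genes, 18.5% were called higher in experiment 1 and 5.86% in experiment 2. Red cell markers, 5 in all, summed to 108984 to 283355 CPM in aged and 18399.8 to 90284 CPM in young ovaries of experiment 1, where all 5 were called higher, and to 11189 to 47438 CPM in aged and 2413 to 48901 CPM in young ovaries of experiment 2, where 1 was. All 7 markers of B and plasma cells were called higher in aged ovaries of both experiments, with sums of 8355 to 11967 CPM in aged and 58.1 to 111 CPM in young ovaries of experiment 1 and 4101 to 11456 CPM in aged and 43.9 to 204 CPM in young ovaries of experiment 2. Germinal centre B cells also divide, and their 4 markers summed to 17.3 to 40.0 CPM in aged and 14.4 to 22.4 CPM in young ovaries of experiment 1, and to 29.1 to 32.2 CPM in aged and 19.2 to 33.5 CPM in young ovaries of experiment 2. Of the 3 tested, edgeR called 0 in either experiment, with 1 at an unadjusted p under 0.05 in each, and DESeq2 and limma-voom called 0 in experiment 1 and 1 in experiment 2, higher. All 5 macrophage markers and 6 of 6 T cell markers were called higher in experiment 1, and 5 of 5 and 5 of 6 in experiment 2. The part of these cells in the levels of the 42 genes was not tested. In the young library 3 of experiment 2, low in oocyte and luteal markers and with 284 CPM of granulosa markers, the 42 genes were mixed. It was the lowest of the 5 young libraries of that experiment for 13 of the 42 genes, Cdk1, Bub1, Bub1b, Aspm, Cenpf, Ncapg, Smc4 and Hells among them, and the highest for 8. For 15 genes, Cdk1 and Bub1b among them, it lay within the range of the untreated aged libraries, as the other young libraries did for 13 to 19.

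**Figure D4:**
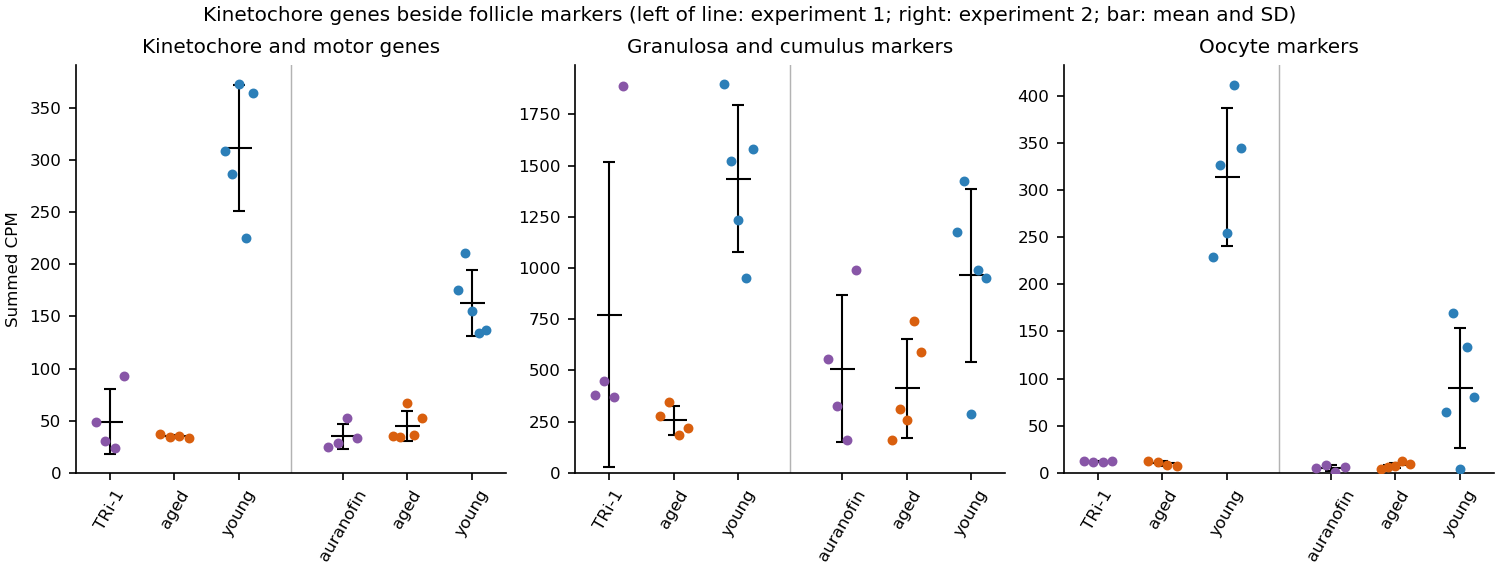
Summed CPM (vertical axes) of kinetochore and motor genes, of 12 granulosa and cumulus markers and of 12 oocyte markers in every library, by group (horizontal axes; experiment 1 left of the grey line, experiment 2 right of it), with the mean and SD as bars. TRi-1 library 4 stands above the other TRi-1 libraries in the kinetochore panel, at 93.2 CPM, and in the granulosa panel, at 1886 CPM, and 1 young library of experiment 2 is as low as the aged ones in the oocyte panel, at 4.10 CPM, and lies within their range in the granulosa panel, at 284 CPM.

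Other genes of the same pathways, from 3 further lists, were set beside the 42. Of 39 further mitotic genes, 26 were called lower and 1 higher with age in experiment 1, where 16.4% of all genes were called lower and 18.5% higher, and 6 lower and none higher in experiment 2, where 4.59% of all genes were called lower and 5.86% higher. Their median log2 fold changes were -1.75 and -0.81. Ttk, a checkpoint kinase, had -4.17 ± 0.46 and -2.37 ± 0.44 (adjusted p 1.1e-05 and 0.0031), and Hmgb2, a chromatin protein of dividing cells, -1.88 ± 0.27 and -1.61 ± 0.23 (adjusted p 8e-05 and 0.00052). Pttg1, the gene of securin, was the 1 called higher in experiment 1 (0.55 ± 0.16, adjusted p 0.014), and had 0.13 ± 0.25 in experiment 2.

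Of 33 genes of origin licensing and DNA synthesis, 15 were called lower and 2 higher in experiment 1 (16.4% and 18.5% of all genes), and 4 lower and none higher in experiment 2 (4.59% and 5.86% of all genes), with medians of -0.91 and -0.47. Pola1, the catalytic subunit of the polymerase that starts new strands, had -2.68 ± 0.30 and -2.11 ± 0.38 (adjusted p 1.2e-05 and 0.0024), and Dbf4, the activator of the Cdc7 kinase, -1.86 ± 0.33 and -1.78 ± 0.28 (adjusted p 0.00045 and 0.0011). Cdt1 (0.79 ± 0.26) and Rfc5 (0.78 ± 0.26) were the 2 called higher. Of 22 E2F and G1/S regulators, 2 were called lower and 1 higher in experiment 1, 3 of 22 in all where 34.9% of all genes were called, and 2 lower and 2 higher in experiment 2, where 10.5% were, with medians of -0.25 and -0.04. Ccne2, a cyclin of S phase entry, was lower, with -2.62 ± 0.38 and -2.27 ± 0.42, whereas the transcription factor gene E2f2 was higher, with 1.83 ± 0.38 and 1.85 ± 0.42 (adjusted p 0.0015 and 0.01).

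No gene of the 42 passed the threshold under either compound in aged ovaries. TRi-1 against untreated aged ovaries gave 0 calls in edgeR, with 5 of the 42 at an unadjusted p under 0.05, where 0.418% of all genes were called (0.175% higher and 0.243% lower). DESeq2 and limma-voom also gave 0. Auranofin against untreated aged ovaries gave 0 calls in edgeR, with 2 at an unadjusted p under 0.05, where 0.0184% of all genes were called, all of them higher (0% lower), and again 0 in DESeq2 and limma-voom. Medians over the 42 genes were 0.25 for TRi-1 and -0.45 for auranofin, beside 0 and 0.02 for all genes tested. The same untreated aged libraries serve in these comparisons and in the comparisons of age, so the values of a gene in both are not independent.

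Summed over the 42 genes, TRi-1 ovaries held 577 ± 161 CPM and untreated aged ovaries 515 ± 17.6 CPM, and auranofin ovaries held 463 ± 31.3 CPM and untreated aged ovaries 565 ± 123 CPM (SD, n = 4 and 4, and 4 and 5). The TRi-1 range of 447 to 783 CPM enclosed the narrow untreated range, and the auranofin range of 423 to 499.9 CPM overlapped the lower part of the untreated one. TRi-1 library 4, the one with 1886 CPM of granulosa markers, had the highest sum of the TRi-1 group, and without it the median log2 fold change for TRi-1 was 0.08, with 0 calls.

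By the smallest p under TRi-1, Mcm7 had 36.7, 37.3, 32.5 and 45.6 CPM in TRi-1 ovaries and 28.4, 21.9, 23.1 and 25.7 CPM in untreated aged ovaries, without overlap, a log2 fold change of 0.60 ± 0.20 (adjusted p 0.17). Young ovaries of experiment 1 had 57.0 to 95.1 CPM of Mcm7, above both. Plk1 had 7.62, 6.17, 3.90 and 9.44 CPM in TRi-1 ovaries and 13.3, 7.04, 12.8 and 13 CPM in untreated aged ovaries, overlapping through the lowest untreated library, with -0.79 ± 0.34 (adjusted p 0.25). Kif20b had 2.47, 2.30, 1.71 and 10.3 CPM in TRi-1 ovaries and 3.08, 2.55, 0.841 and 2.35 CPM in untreated aged ovaries, and only TRi-1 library 4 stood clear of the rest. Cenpe had 12.7, 6.26, 6.85 and 26.8 CPM in TRi-1 ovaries and 11.8, 5.30, 7.29 and 8.47 CPM in untreated aged ovaries, again highest in library 4, with 0.66 ± 0.41 (adjusted p 0.45).

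Under auranofin, Nusap1 had 2.55, 2.43, 6.74 and 2.91 CPM in auranofin ovaries and 9.11, 5.58, 14.2, 3.07 and 5.74 CPM in untreated aged ovaries, with overlap, and -1.06 ± 0.42 (adjusted p 0.61). Aurkb had 0, 0.831, 0 and 0.416 CPM in auranofin ovaries and 0.905, 1.10, 2.38, 0.992 and 1.64 CPM in untreated aged ovaries, with -2.10 ± 0.98 (adjusted p 0.7), and its auranofin libraries held 18 counts in all. Smc2 had 9.07, 6.59, 19.6 and 6.07 CPM in auranofin ovaries and 9.89, 9.89, 13.2, 11.4 and 10.4 CPM in untreated aged ovaries, and Pcna 55.2, 69.1, 43.8 and 50.8 CPM in auranofin ovaries and 75.1, 52.6, 67.9, 74 and 70.4 CPM in untreated aged ovaries. Neither was separate between the groups, with -0.10 ± 0.34 and -0.32 ± 0.20 (adjusted p 0.97 and 0.8). A p that misses the threshold does not show that levels were equal.

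**Figure D5:**
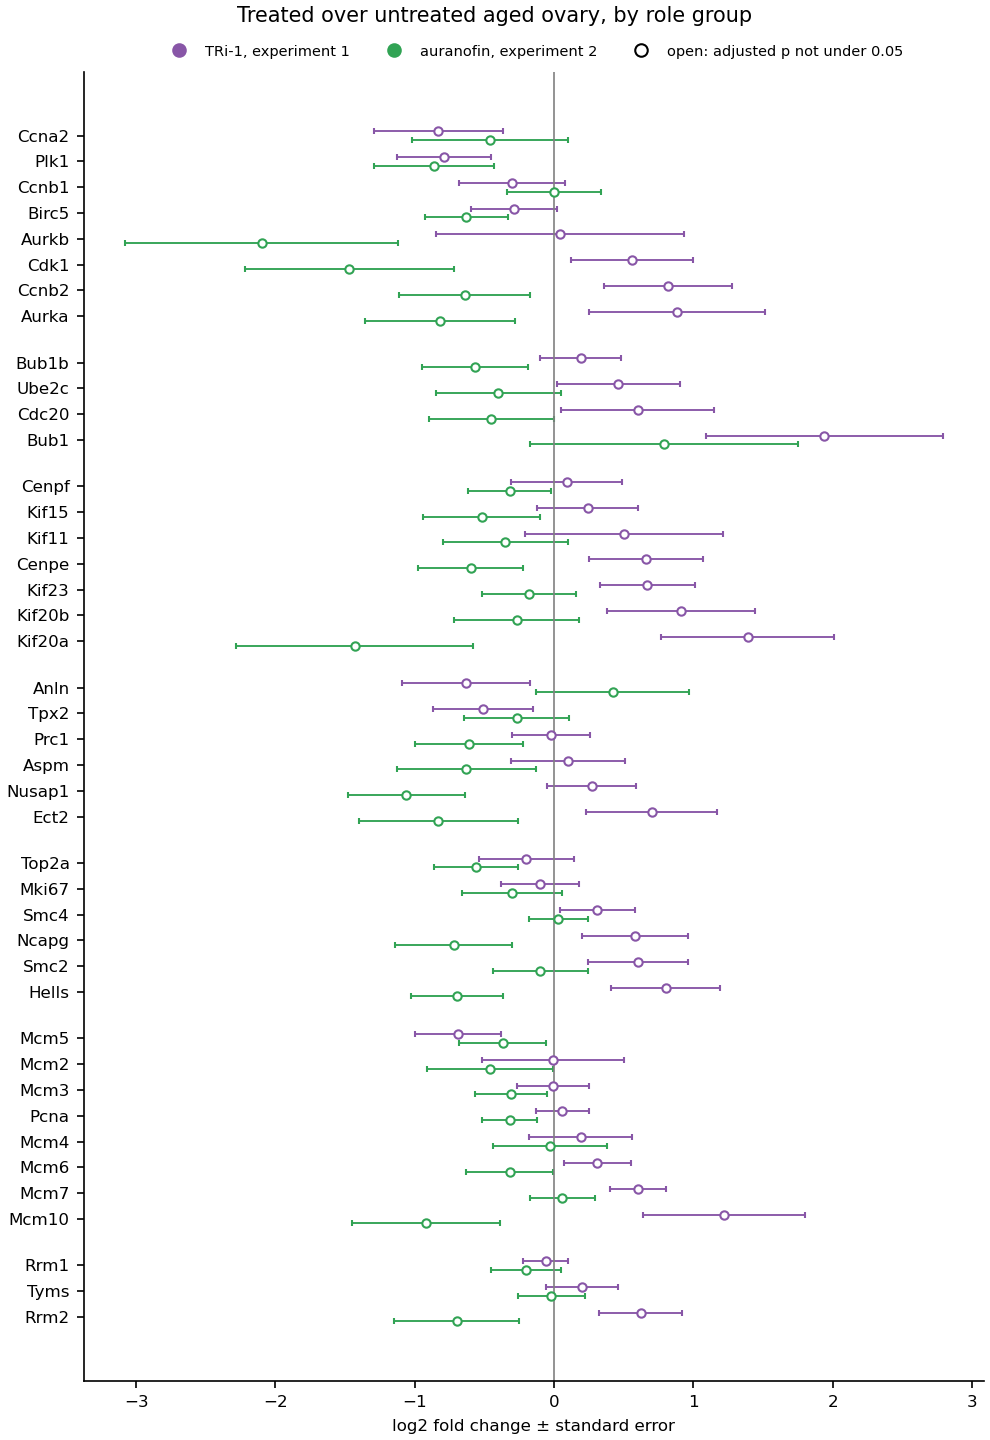
Log2 fold change of treated over untreated aged ovary with its standard error (horizontal axis) for each of the 42 genes, grouped by role (vertical axis), for TRi-1 in experiment 1 (purple) and auranofin in experiment 2 (green). Every point is open, since no gene had an edgeR adjusted p under 0.05, and the medians are 0.25 for TRi-1 and -0.45 for auranofin.

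The difference between the treatment effects, auranofin minus TRi-1, had a median of -0.73 over the 42 genes and -0.01 over all genes, and of -0.39 and -0.07 without the 4 libraries that stood apart. It called 0 of the 42 in edgeR, with 10 at an unadjusted p under 0.05 and 0.0172% of all genes called, and 0 in DESeq2 and limma-voom. All genes it called were higher in that difference. Its lowest adjusted p among the 42 was that of Hells (-1.51 ± 0.52, adjusted p 0.28). The compounds were given in different experiments, and neither dose nor time is given, so compound and experiment cannot be told apart in this difference. Of the further lists, 1 gene was called under TRi-1, Pttg1 (-0.91 ± 0.17, adjusted p 0.038). This call was lost without untreated aged library 3 or 4 or without any 1 of the 4 TRi-1 libraries (adjusted p 0.059 to 0.13), and with all 27 libraries in 1 fit, 2 groups in the fit or the replicate block (0.13, 0.098 and 0.13), and without the 4 libraries that stood apart (-0.85, adjusted p 0.22). None was called under auranofin by edgeR, where 6 of the 39 further mitotic genes, 5 of the 33 genes of licensing and synthesis and 1 of the 22 regulators had an unadjusted p under 0.05. DESeq2 called 1 of the 39 lower under auranofin, and limma-voom none of the 3 lists.

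Aged ovaries given either compound were below young ovaries for most mitotic genes, with 25 of 31 called lower under TRi-1 and 19 of 31 under auranofin. TRi-1 aged against young ovaries called 29 of the 42 lower and none higher, where 21% of all genes were called, 10.9% higher and 10.1% lower. Auranofin aged against young ovaries called 19 lower and none higher, where 8.98% of all genes were called, 5.42% higher and 3.56% lower. The medians were -1.63 and -1.25, beside 0.01 and -0.01 for all genes tested, and the young libraries are those of the comparisons of untreated aged ovaries. Without the 4 libraries that stood apart, 29 and 17 were called.

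The smallest p for TRi-1 aged against young ovaries were those of Aspm, Prc1, Cenpe and Ncapg. Aspm had 3.22, 1.84, 1.81 and 8.35 CPM in TRi-1 ovaries, against 30.9 to 47.3 CPM in young ovaries (-3.27 ± 0.41, adjusted p 5.4e-05), and Prc1 8.05, 6.26, 5.04 and 14 CPM in TRi-1 ovaries, against 31.7 to 44.2 CPM in young ovaries (-2.19 ± 0.28, adjusted p 5.6e-05). Cenpe had -3.05 ± 0.41 and Ncapg -2.67 ± 0.37 (adjusted p 9.3e-05 and 0.00013). TRi-1 library 4, highest of its group in all 4 genes, was still below every young library of experiment 1 in each.

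For auranofin aged against young ovaries, Kif20b had 1.05, 1.66, 4.22 and 3.08 CPM in auranofin ovaries, against 19.7 to 60.1 CPM in young ovaries (-3.73 ± 0.49, adjusted p 0.00039). Top2a had 15.8, 18.4, 29.8 and 28.1 CPM in auranofin ovaries, against 87.0 to 166 CPM in young ovaries (-2.33 ± 0.32, adjusted p 0.00053). Smc2 had -2.64 ± 0.36 and Hells -2.23 ± 0.34 (adjusted p 0.00056 and 0.0011), and neither overlapped between auranofin and young ovaries. Of the 11 helicase, clamp and nucleotide genes, edgeR called 0 in that comparison, with 3 at an unadjusted p under 0.05, DESeq2 called 0 and limma-voom 1, lower.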

How the data were processed

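Polyadenylated RNA of mouse ovary was extracted with RNeasy kits and DNase I digestion and made into Lexogen QuantSeq libraries, per the labels' protocols. The deposited values are whole-number counts per gene, not scaled between libraries, in 1 table whose 27 columns match the labels, with 0 columns of other samples. Tools listed in the submitters' processing notes, without roles, are RSEM 1.2.3 and DESeq2, with mm10 as the build. Neither annotation nor counting strand is given in the sources used here, and a gene cannot be told apart from an overlapping antisense one. GENCODE M21 gave symbols for 51596 of 51789 IDs.

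The members, lists and rules were chosen with earlier results of these data known. Counts were tested in R 4.3.3 with edgeR 4.0.16: TMM, filterByExpr on the groups, and quasi-likelihood F tests in a model of 1 mean for each of the 3 groups of an experiment (all 27 libraries for effects over both experiments and differences), and Benjamini-Hochberg adjusted p over all genes, threshold 0.05. An adjusted p without a named tool is that of edgeR. Standard errors were derived from the F statistic, as the fold change on the log2 scale over its root. CPM were scaled with TMM over all 27 libraries. The tests were also run on counts simulated from 1 mean per gene, with known changes in some genes. These counts held no outlying libraries or shifts in cell types, so that run cannot vouch for the tests here. Library depth was 6460903 to 14814381 counts, so genes near 1 CPM rest on few counts.

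Groups came from the labels, which name a mouse and a replicate number, and replicates were taken as separate mice. If they were not, p-values measure a spread that may be technical. No library was a copy of another: the chi-square per gene was 20.5 to 208 over 48 pairs within groups and 28.5 to 283 over 303 pairs between groups. Values in every untreated library are given for the gene of each role with the highest mean CPM. Values in the libraries compared are given for up to 4 called genes with the smallest p in each comparison. Where none was called under a compound, they are given for the 2 with the smallest p. Exceptions given by fold change only are Hells and, in TRi-1 against young ovaries, Ncapg. Other genes given in full were chosen after their values were seen. Promoters came from a RefSeq table of GRCm38.p6.

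The alternatives changed the tool (DESeq2 1.42.0, or limma-voom from limma 3.58.1 with quality weights), the scaling (RLE), the filter (none, or a mean of at least 5 CPM), the libraries in the model (the 2 groups compared, or all 27) and the design (a replicate block), or dropped 1 library at a time. Leaving out the 4 libraries that stood apart by cell type markers was added after seeing the data. Figures used matplotlib 3.10.9 (Python 3.11.15).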

Additional observations from a re-analysis of the deposited data

Results flagged for a closer look

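A library was set apart in 7 of the 168 sets of 4 or 5 libraries examined (4.17%), where its gap to the nearest library of its group was too large for the group's range; chance alone flags about 1 in 20 such sets. In TRi-1 library 4, Kif20b had 10.3 CPM, against 1.71 to 2.47 CPM in the other TRi-1 libraries, and Ncapg had 9.33 CPM, against 3.04 to 3.59 CPM. The same library had 1886 CPM over the granulosa and cumulus markers, against 371 to 446 CPM. Untreated aged library 2 of experiment 1 had 7.04 CPM of Plk1, against 12.8 to 13.3 CPM in the other untreated aged libraries, and 2.24 CPM of Aspm, against 3.77 to 3.94 CPM. Auranofin library 3 had 6.74 CPM of Nusap1, against 2.43 to 2.91 CPM in the other auranofin libraries. Auranofin library 4 had 53.0 CPM of Mcm7, against 26.0 to 29.9 CPM. Their causes were not tested.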

How the results depend on the processing

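Of 184 counts of called genes among the 42 under the alternatives, 178 stayed within 1.5 times the reported count. The others were higher: 21 in limma-voom for age in experiment 2, and, for the difference between age effects, 3 in DESeq2, 2 in limma-voom, 1 without the 4 libraries that stood apart and 0 to 1 with each library left out. Over all genes, limma-voom called 2642 for age in experiment 2, against 1705 in edgeR. For the difference, DESeq2 called 172 and limma-voom 33 of all genes, against 0 in edgeR. Leaving out each library gave 29 to 31 calls for age in experiment 1, 12 to 14 in experiment 2, 0 for each compound, 24 to 31 and 13 to 19 for TRi-1 and auranofin against young, and 29 to 33 for age over both. The 25 same-numbered pairs had correlations of deviations from -0.26 to 0.45, 6 of them over 0.1. Pairs with different numbers were not correlated, so these values cannot decide whether the numbers pair the mice. With the replicate block the calls were 28, 14, 0, 0, 25, 15 and 30 in the same order, and 0 for both differences. In that fit Rrm1 missed the threshold in experiment 1 (-0.52, adjusted p 0.065). Of 1063 fold changes of named genes, 1037 kept direction and side of the threshold. The 12 reversed values were small and none passed: with 1 library left out, Pcna with age in experiment 2 ranged from -0.16 to 0.00, Prc1 under TRi-1 from -0.36 to 0.20, Pcna under TRi-1 from -0.07 to 0.22, Rrm1 under TRi-1 from -0.07 to 0.03 and Smc4 under auranofin from -0.07 to 0.18, and Rrm1 under auranofin at 0.03 in limma-voom. Prc1 in auranofin against young ovaries missed the threshold without auranofin library 1 (-1.42, adjusted p 0.083) and with 2 groups in the fit (-1.54, adjusted p 0.061). Over all genes, calls for the compounds varied more, up to 587 for TRi-1 and 76 for auranofin in DESeq2, against 67 and 3. All 48 sums of CPM kept within the spread between mice under RLE. The cause was not tested. Genes near 1 CPM, such as Aurkb and Bub1 in aged ovaries and Mcm10 in untreated aged ovaries of experiment 1, are limited by depth.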
